A study of Drosophila melanogaster with 6 samples.

Results

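Animals take energy from fat by oxidizing fatty acids stepwise, with acetyl-CoA cut off at the end of each cycle. In mitochondria, long chains enter bound to carnitine, acyl-CoA dehydrogenases open each cycle and pass electrons towards the respiratory chain, and hydratases, hydroxyacyl-CoA dehydrogenases and thiolases complete it. In peroxisomes, the first step is catalyzed instead by acyl-CoA oxidases, which hand electrons straight to oxygen and release hydrogen peroxide. In flies the fat body, the oenocytes and the muscles are well known for storing or burning fatty acids.

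The genes described here encode enzymes of both routes. They include the acyl-CoA oxidases Acox57D-p and Acox57D-d, the carnitine palmitoyltransferase gene whd, the acyl-CoA dehydrogenase genes Mcad and CG3902, the trifunctional protein subunits Mtpalpha and Mtpbeta, the hydroxyacyl-CoA dehydrogenase gene scu and the thiolase gene yip2. The 10 genes were chosen by name for their function, with earlier results of these data known. Every probe set (a group of oligonucleotides that reads a transcript) that the platform annotation paired with a single one of them was taken. That gave 7 probe sets for 6 of the 10 genes, among 18769 probe sets tested. Mcad, Mtpalpha and CG3902 had no probe set listed in the annotation used and were not analysed here, and 1 probe set shared by scu and DIP-epsilon was left out.

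The transcripts were measured on Affymetrix Drosophila arrays in whole bodies of w1118 flies. The METH group was fed 0.6% (w/v) methamphetamine (METH) in the standard diet for 24 h, and the control group was fed that diet with 0% METH for the same time. All flies in both groups were virgin males, aged 5 days when the feeding began, and each sample pooled 20 of them. The labels give 3 biological replicates for each diet, on 1 array each. The comparison asks how the transcripts of a whole male fly differ after a day on METH. The deposited values are linear signal intensities, and they were set on the log2 scale and divided by the signal of an actin control probe set (AFFX-Dros-ACTIN_M_r) on the same array, so that levels are given as a percentage of actin. Because RNA of the whole body was pooled, fewer cells of a type and less RNA per cell cannot be told apart.

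The median signal of an array was 51.7 to 66.1 in METH-fed flies and 61.0 to 70.3 in control flies, and arrays of 1 diet correlated by rank at 0.968 to 0.975, close to the 0.966 to 0.972 of arrays of different diets. The actin control itself read 800 ± 88.5 in METH-fed flies and 1041 ± 156 in control flies (SD, n = 3 each). On the actin scale the median of all probe sets therefore stood 0.24 above zero (log2, METH minus control), and changes of the fatty acid oxidation genes are also given relative to that median. With limma, 158 probe sets were higher and 78 lower in METH-fed flies at an adjusted p under 0.05, against 131 higher and 169 lower when each array was centred on its median and 114 higher and 381 lower with the signals as deposited. Transcripts that females make in yolk and eggshell had a summed signal of 94.9 to 146 in METH-fed flies and 111 to 145 in control flies over the 5 genes measured. Most of it was Yp3, at 79.8 to 114 units in METH-fed flies and 79.1 to 128 in control flies. The mean level of Yp3 was at the 55.7 percentile of the probe sets, so it was not dim. Yp1, Yp2, Vm26Aa and Cp36 were dim, at 22.4 units or less on every array.

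Of the 6 genes measured, Acox57D-p and yip2 rose in METH-fed flies and none fell (limma, adjusted p under 0.05). Over all probe sets 1.26% were called, 0.842% higher and 0.416% lower, and with dim probe sets left out 2.72% were. The genes were chosen with earlier results of these data known, so such shares are given for scale and not as a test. A further pair, Mtpbeta and scu, had log2 differences of 0.55 and 0.56 without passing, and whd and Acox57D-d lay on either side of zero. The median log2 difference of the 6 genes was 0.56, against 0.24 over all probe sets, and 4 of the 6 were above that median. On the actin scale all METH arrays were above all control arrays for 4 of the 6 genes, which was so for 15.7% of all probe sets, and no gene had all METH arrays below, against 2.58% of all probe sets. With the signals as deposited 3 genes were wholly above and 1 wholly below, against 2.61% and 13.6% of all probe sets.

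**Figure D1:**
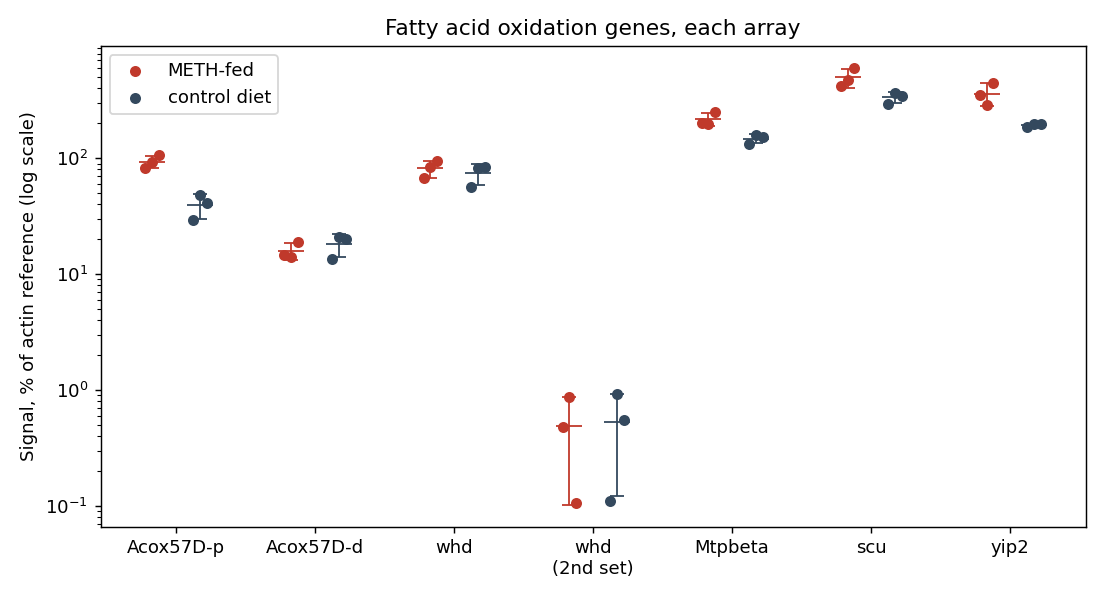
Signal of each probe set of the fatty acid oxidation genes on each array, as a percentage of the actin control on a log axis, with METH-fed flies in red on the left of each pair and control flies in dark blue on the right. Bars give the mean ± SD of 3 arrays, and the groups stand apart for Acox57D-p, Mtpbeta, scu and yip2.

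Acox57D-p encodes an acyl-CoA oxidase, the enzyme that opens the peroxisomal cycle. Its signal was 82.6, 92.6 and 106% of actin on the METH arrays 1, 2 and 3, against 29.5, 48.3 and 40.7% on the control arrays 1, 2 and 3. Every METH array was well above every control array, and the lowest METH value was above the highest control value by more than the SD of either group. The means were 93.6 ± 11.6% in METH-fed flies and 39.5 ± 9.44% in control flies (SD, n = 3 each). The gene rose 2.40-fold, a log2 difference of 1.27 (SE 0.19, 95% interval 0.85 to 1.68, limma adjusted p = 0.00303), and it ranked 111 by p among all probe sets. The groups were also apart without the actin control, at 687, 804 and 740 units of signal on the METH arrays against 360, 446 and 401 on the control arrays. Relative to the median of all probe sets the difference was 1.02. Acox57D-p passed under all 5 other scalings of the arrays and with any 1 array left out, but not without the trend of limma's spread on the signal level (adjusted p = 0.207). The study names 2 cutoffs. With the methods' t-test Acox57D-p passed at the first (p below 0.008 and over 1.5-fold, at which 1.25% of all probe sets were higher and 0.33% lower) but not at the second (p of at most 0.005, the same fold), nor after Benjamini-Hochberg adjustment (adjusted p = 0.289). The study listed this gene as higher on the basis of the same samples, so its direction here is not independent evidence.

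Acox57D-d, a second acyl-CoA oxidase, is the next protein-coding gene to Acox57D-p on chromosome arm 2R. Its signal was 14.5, 14.03 and 18.9% of actin on the METH arrays against 13.4, 20.8 and 20.2% on the control arrays. These groups overlapped, with the lowest value on a control array. The means were 15.8 ± 2.69% in METH-fed flies and 18.2 ± 4.10% in control flies (SD, n = 3 each), and the log2 difference of -0.19 (SE 0.22, 95% interval -0.65 to 0.28) did not pass (limma adjusted p = 0.69). As deposited, the signals were 120, 122 and 132 in METH-fed flies and 164, 192 and 199 in control flies. On that scale every METH array was below every control array, which was so for 13.6% of all probe sets. The log2 difference was then -0.56 without passing the test. It was negative under every scaling tried, passed under none, and was -0.43 relative to the median of all probe sets.

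The ratio of the 2 signals on 1 array does not depend on how the arrays are scaled, and it can be compared between diets although it is not a ratio of transcript amounts, since probe sets differ in brightness. The signal of Acox57D-p over that of Acox57D-d was 5.70, 6.60 and 5.59 on the METH arrays and 2.20, 2.32 and 2.02 on the control arrays. The ratios did not overlap, and within each diet they varied little. On the log2 scale they averaged 2.57 ± 0.13 in METH-fed flies and 1.12 ± 0.10 in control flies (SD, n = 3 each), so that the ratio was 2.74-fold higher with METH. An exact two-sided permutation test gave p = 0.1, the smallest p that 3 arrays against 3 can give, so this single comparison could not pass 0.05. The study had listed Acox57D-p as higher from the same samples, so the separation of the ratios is not independent evidence either. With each array left out in turn, the log2 difference of 1.45 stayed between 1.38 and 1.499.

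The other acyl-CoA oxidase genes with probe sets, Acox3, CG17544 and CG4586, were not called higher, and of the 5 oxidase genes measured only Acox57D-p was above the median of all probe sets. The signal of Acox3 as deposited was 462, 651 and 607 on the METH arrays and 1040, 966 and 1020 on the control arrays. For CG17544 it was 230, 331 and 367 on the METH arrays and 570, 599.6 and 498 on the control arrays. Both were thus wholly lower in METH-fed flies before scaling to actin, as were 13.6% of all probe sets. On the actin scale neither passed (log2 differences of -0.45 and -0.49, limma adjusted p = 0.416 and 0.432). Both were called lower as deposited (limma adjusted p = 0.00805 and 0.0235), after centring on the 75th percentile and after quantile normalization. Neither passed with median centring (limma adjusted p = 0.059 and 0.122) or with the 5 and 3 prime actin controls (0.392 and 0.394). CG4586 was dim, at 17.6, 8.64 and 3.54 units in METH-fed flies and 18.6, 15.6 and 3.70 in control flies. With the pairs chosen after their values were seen, and hence with no test, Acox57D-p over Acox3 was 1.22 to 1.49 on the METH arrays and 0.346 to 0.461 on the control arrays. Acox57D-p over CG17544 was 2.02 to 2.98 on the METH arrays and 0.631 to 0.805 on the control arrays. Both ratios were apart in every array, by 3.29-fold and 3.38-fold on average.

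**Figure D2:**
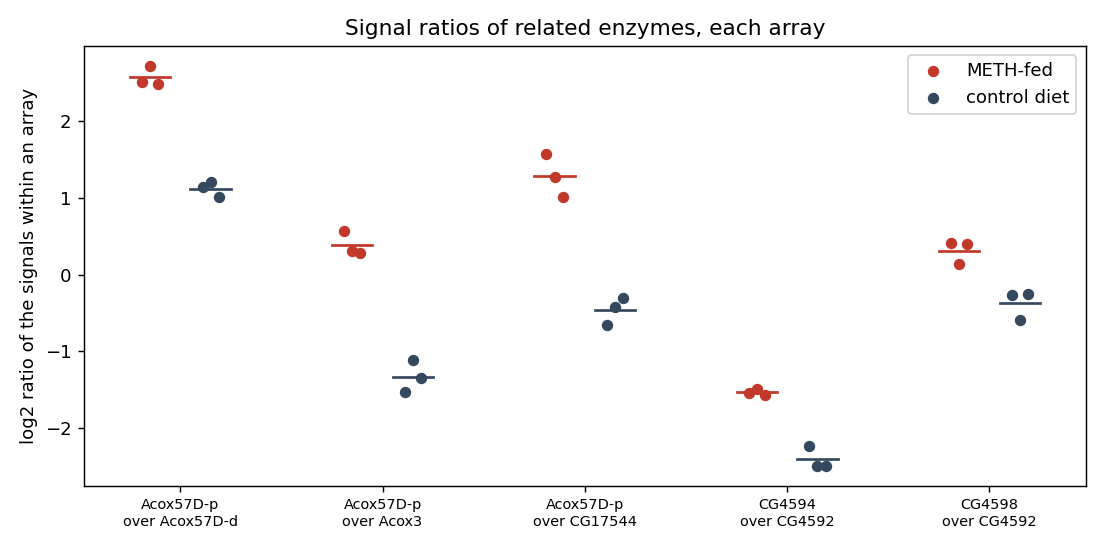
Ratio of the signals of related enzymes on each array, as log2, with METH-fed flies in red on the left of each pair and control flies in dark blue on the right, and a line at the mean of 3 arrays. Acox57D-p stands higher against each of Acox57D-d, Acox3 and CG17544 in every METH array, and CG4594 and CG4598 stand higher against CG4592.

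In mitochondria, whd encodes carnitine palmitoyltransferase 1, which loads long-chain fatty acids onto carnitine at the outer membrane and so gates their entry. Its brighter probe set read 67.0, 84.4 and 93.9% of actin on the METH arrays and 56.6, 83.1 and 83.7% on the control arrays. The groups overlapped on this scale and as deposited. The means of 81.8 ± 13.6% in METH-fed flies and 74.5 ± 15.5% in control flies (SD, n = 3 each) gave a log2 difference of 0.14 (SE 0.20, 95% interval -0.28 to 0.56, limma adjusted p = 0.737), whose sign turned under 4 of the 5 other scalings and which was -0.10 relative to the median of all probe sets. A second probe set was near the bottom of the arrays, at 4.005, 7.60 and 0.737 units of signal in METH-fed flies and 1.34, 8.45 and 5.43 in control flies, and gave a log2 difference of -0.11 with a wide SE of 0.98. A change of whd was thus not detectable in either direction, and the interval of the brighter probe set bounds it on the actin scale only.

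Mtpbeta encodes the thiolase subunit of the mitochondrial trifunctional protein, which acts on long chains. Its signal was 203, 198 and 249.7% of actin on the METH arrays and 133, 158 and 153% on the control arrays. All METH arrays were higher than all control arrays, and this was also so as deposited (1691, 1719 and 1748 units against 1617, 1460 and 1503 units). The means were 217 ± 28.5% in METH-fed flies and 148 ± 13.4% in control flies (SD, n = 3 each), and the log2 difference of 0.55 (SE 0.17, 95% interval 0.18 to 0.92) did not pass over all probe sets (limma adjusted p = 0.245). Its size ranged between 0.17 and 0.69 across the other scalings, and relative to the median of all probe sets it was 0.31.

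The gene scu encodes a mitochondrial hydroxyacyl-CoA dehydrogenase, which carries out the second oxidation of the cycle and whose mammalian counterpart is also part of the mitochondrial RNase P. Its signal was 422, 469 and 603% of actin on the METH arrays and 293, 363 and 347.5% on the control arrays. The diets did not overlap on this scale, but they did as deposited, where METH array 1 (3510 units) lay below control array 1 (3571 units). The means were 498 ± 94.0% in METH-fed flies and 335 ± 36.6% in control flies (SD, n = 3 each), with a log2 difference of 0.56 (SE 0.21, 95% interval 0.12 to 1.01, limma adjusted p = 0.359), or 0.32 relative to the median of all probe sets.

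The thiolase encoded by yip2 cuts acetyl-CoA from the chain in the last step of the mitochondrial cycle. Its signal was 349, 287 and 448.5% of actin on the METH arrays, against a narrow 185, 196 and 196.5% on the control arrays. All METH arrays were clearly higher, with a wider spread than the control arrays. The means were 362 ± 81.5% in METH-fed flies and 192 ± 6.56% in control flies (SD, n = 3 each). The gene rose 1.85-fold, a log2 difference of 0.89 (SE 0.20, 95% interval 0.46 to 1.31, limma adjusted p = 0.0474), close to the threshold. Relative to the median of all probe sets the difference was 0.64. As deposited the groups were apart as well, at 2902, 2492 and 3140 units in METH-fed flies and 2251, 1807 and 1933 units in control flies. The call was lost as deposited (adjusted p = 0.0594), with median centring (0.126) and with centring on the 75th percentile (0.0548). It was also lost in limma without control array 1 (adjusted p = 0.125), control array 2 (0.113), control array 3 (0.242), METH array 1 (0.151) or METH array 3 (0.0785), while the log2 difference stayed between 0.72 and 1.04.

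Among themselves, the 4 mitochondrial genes measured differed by 0.14 to 0.89 (log2, METH minus control), and the 2 peroxisomal genes by -0.19 and 1.27. On the actin scale the genes shared some of the within-diet spread, and dividing by actin moves all probe sets of an array alike. For 6 of the 6, METH array 3, with the lowest actin signal of 700.0, gave the highest percentage of actin among the METH arrays. For 6 of the 6, control array 1, with the highest actin signal of 1218, gave the lowest percentage among the control arrays. As deposited METH array 3 stayed highest for Acox57D-d, Mtpbeta, scu and yip2. METH array 2 was highest for Acox57D-p (804 units) and whd (733). Control array 1 stayed lowest for Acox57D-p, Acox57D-d and whd, but was highest for Mtpbeta (1617 units), scu (3571) and yip2 (2251). The share over all probe sets was not counted.

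**Figure D3:**
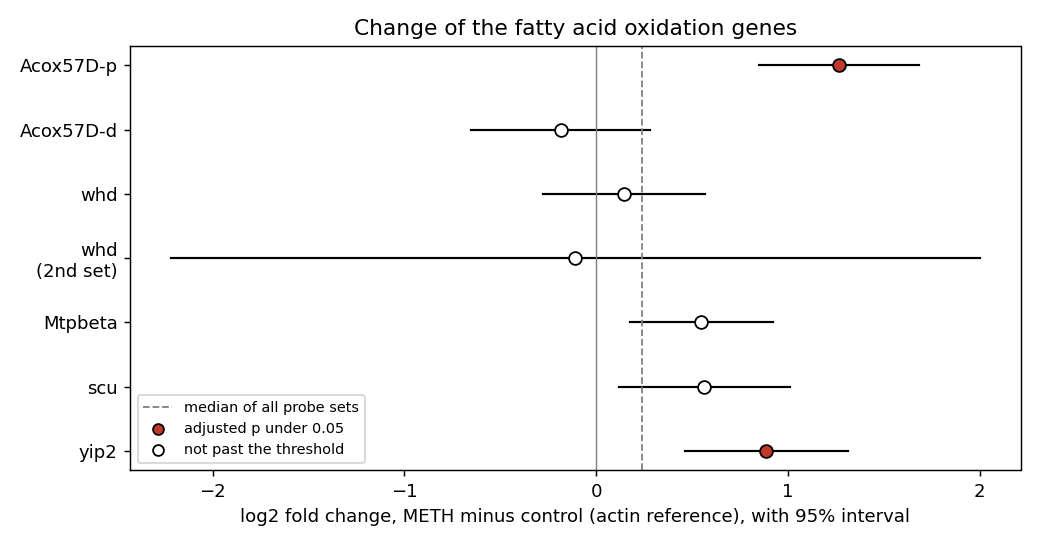
Log2 fold change (METH minus control, actin scale) of each probe set of the fatty acid oxidation genes, with its 95% interval from limma over 3 METH and 3 control arrays. The dashed line is the median of all probe sets, at 0.24, and filled points mark Acox57D-p and yip2, which passed an adjusted p of 0.05.

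**Figure D4:**
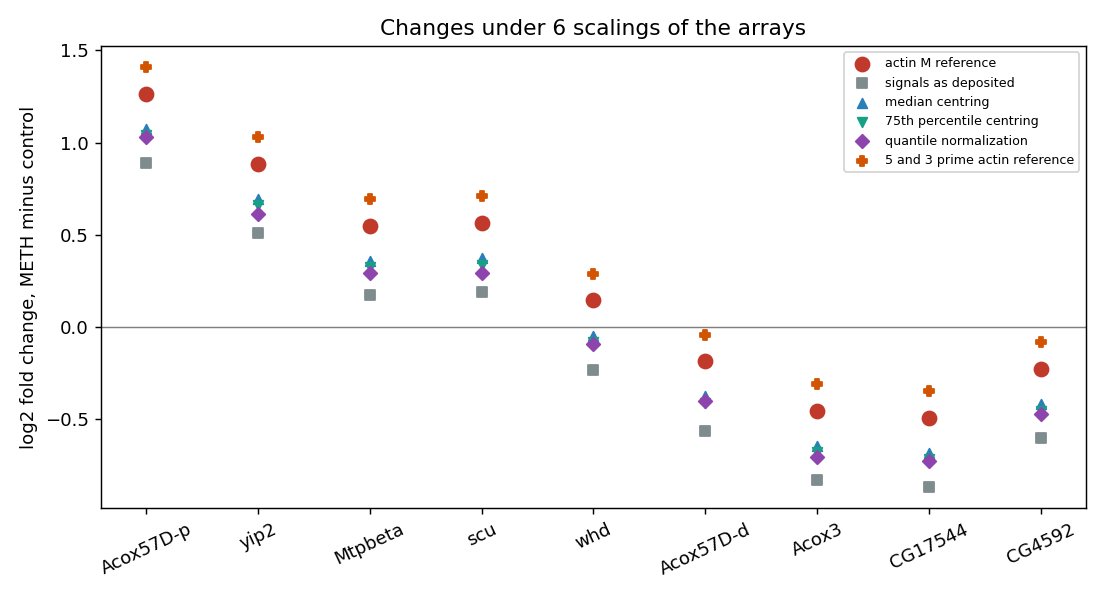
Log2 fold change (METH minus control) of 6 fatty acid oxidation genes and of Acox3, CG17544 and CG4592 under 6 scalings of the arrays, 1 marker for each scaling. The scalings shift all genes nearly alike, so that whd crosses zero while Acox57D-p stays at 0.89 or more and Acox57D-d stays below zero.

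Of the wider pathway, 65 genes from 8 lists were looked up and 52 had probe sets. With limma 1 of the 52 was higher and none lower at the same threshold, against 0.842% and 0.416% of all probe sets, and at an unadjusted p under 0.05 they were 18 and 2, against 9.38% and 2.12% of all probe sets. Their median log2 difference was 0.32, which is 0.08 above the median of all probe sets, and 32 lay above that median and 20 below. On the actin scale 22 had all METH arrays above all control arrays (15.7% of all probe sets), and none had them all below (2.58%). As deposited 6 had them all above (2.61%) and 8 all below (13.6%). These shares include dim probe sets. With those left out 2.72% were called in place of 1.26%, and the other shares were not counted without them. The lists too were chosen with earlier results of these data known.

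Before oxidation, fatty acids are joined to CoA by synthetases and carried in by the carnitine shuttle. The single gene of the wider pathway that passed was hll, an acyl-CoA synthetase gene, with signals of 26.6, 31.9 and 25.3 on the METH arrays and 9.05, 2.00 and 8.75 on the control arrays. The METH values were close together and all higher. The log2 difference was 2.74 (SE 0.56, limma adjusted p = 0.027), with a mean level at the 33.6 percentile of the probe sets. No detection calls were used, so that control signals this low may not be above background and the size is uncertain. With low values floored the difference was 2.28, and the gene was not among those tested when dim probe sets were left out. The call held under 1 of the 5 other scalings and was lost without METH array 1 (adjusted p = 0.0997), METH array 2 (0.112) or METH array 3 (0.151). Of the 8 genes of this list with probe sets, 5 lay above the median of all probe sets and 3 below, with a median of 0.51. Chosen after their values were seen, CPT2, the inner-membrane carnitine palmitoyltransferase, had a log2 difference of 0.57 (limma adjusted p = 0.188), colt, the carnitine translocase that lies between whd and CPT2 in the path, had 0.60 (adjusted p = 0.247), and the synthetase gene pdgy had 0.63 (adjusted p = 0.206). None of the 3 passed.

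The 9 other acyl-CoA dehydrogenase and oxidase genes included none that passed, with a median of 0.30. Arc42, a short-chain acyl-CoA dehydrogenase gene, had a log2 difference of 0.58 (limma adjusted p = 0.277), and CG9547, a glutaryl-CoA dehydrogenase gene, had 0.53 (adjusted p = 0.36). Electrons of the dehydrogenases leave through electron transfer flavoprotein. Its alpha subunit gene wal, the only one of 3 in that list with a probe set, had a log2 difference of 0.44 (adjusted p = 0.432).

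Enoyl-CoA hydratases and isomerases act on the double bond between both oxidations. None of the 11 genes in the list of these enzymes and their relatives passed. Of the 11, 7 lay above the median of all probe sets and 4 below, with a median of 0.45. Dci, an enoyl-CoA isomerase gene, had a log2 difference of 0.62 (limma adjusted p = 0.155), CG4594 had 0.65 (adjusted p = 0.185), CG6984 had 0.66 (adjusted p = 0.256) and CG9577 had 0.51 (adjusted p = 0.296). The lowest of the list was CG4592, at -0.23 (adjusted p = 0.579), with signals of 538, 626 and 659 on the METH arrays and 913, 1001 and 853 on the control arrays. As deposited CG4592 was wholly below the control arrays, as were 13.6% of all probe sets, and was called lower (log2 difference -0.60, limma adjusted p = 0.0247). It passed under no other scaling. The study listed it as lower from the same samples, so this direction is not independent evidence. CG4598, CG4594 and CG4592, all of 1 enzyme family, follow each other in this order on chromosome arm 2L, and the ratios to it were chosen after their values were seen. CG4594 over CG4592 was 0.338 to 0.355 on the METH arrays and 0.177 to 0.211 on the control arrays, and CG4598 over CG4592 was 1.10 to 1.33 on the METH arrays and 0.664 to 0.837 on the control arrays. Both ratios were higher on every METH array, by 1.83-fold and 1.61-fold on average.

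**Figure D5:**
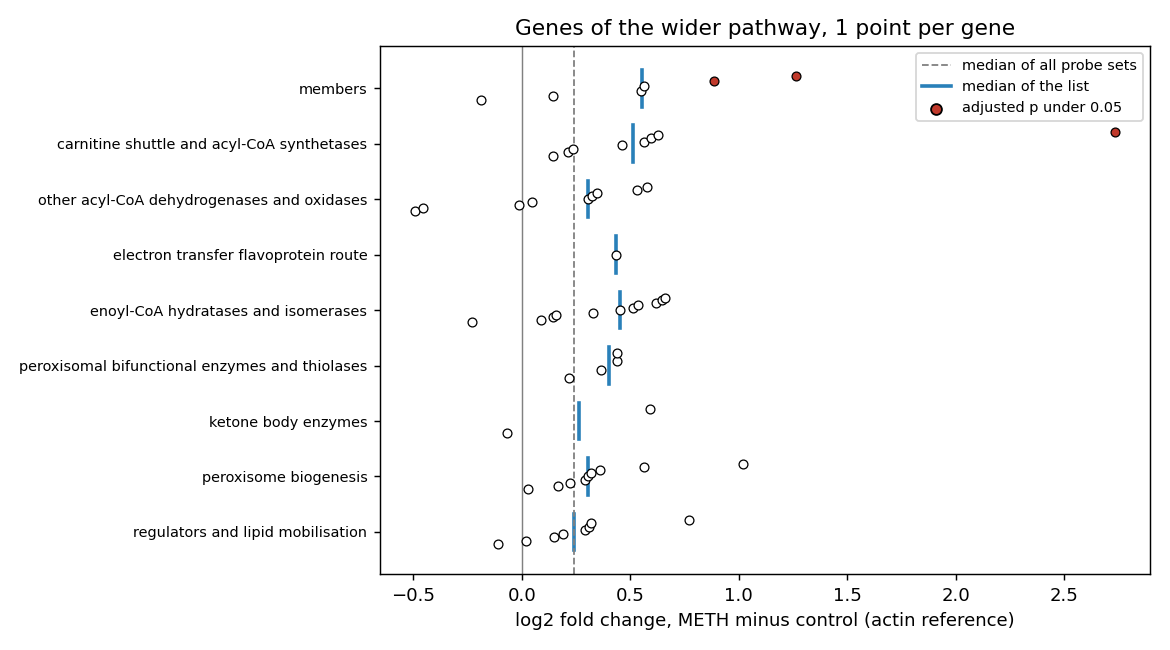
Log2 fold change (METH minus control, actin scale) of each measured gene of the fatty acid oxidation genes and of 8 lists of the wider pathway, 1 point for each gene, with the median of the list in blue and the median of all probe sets (0.24) dashed. Filled points passed an adjusted p of 0.05, which were Acox57D-p, yip2 and hll.

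The peroxisomal enzymes that follow the oxidases did not pass. ScpX, the sterol carrier protein thiolase, had a log2 difference of 0.44 (limma adjusted p = 0.408), and Mfe2, which holds the hydratase and dehydrogenase of the peroxisomal cycle, had 0.22 (adjusted p = 0.6). The acetyl-CoA acetyltransferase genes Acat1 and Acat2, looked up in the same list, are not among these peroxisomal enzymes. They had differences of 0.44 and 0.37 and did not pass either (limma adjusted p = 0.432 and 0.447). Of 9 peroxisome biogenesis genes none passed, with a median of 0.31, and the smallest p was that of Pex5, the receptor that imports matrix proteins, with a difference of 0.56 (adjusted p = 0.319). Pex3, Pex2 and Pex19 lay between 0.31 and 0.36. Relative to the median of all probe sets, Pex5 was at 0.32 and Mfe2 at -0.03, beside 1.02 for Acox57D-p, and these differences between genes were not tested.

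For the ketone body enzymes, SCOT, which activates acetoacetate, had a log2 difference of 0.59 (limma adjusted p = 0.236) and Hmgs, the hydroxymethylglutaryl-CoA synthase, had -0.07 (adjusted p = 0.89). Among the 8 regulators and genes of lipid mobilisation measured, none passed. The nearest was bmm, the triglyceride lipase of lipid droplets, with 1400.0, 1368 and 1001 units on the METH arrays and 1029, 1083 and 756 units on the control arrays. The groups overlapped in these units and were apart on the actin scale, with a log2 difference of 0.77 (SE 0.19, adjusted p = 0.0769). It passed with the dim probe sets left out (adjusted p = 0.0423), with the 5 and 3 prime actin controls as reference (0.0485) and without control array 2 (0.0212). As deposited its difference was 0.40 (adjusted p = 0.395), with median centring 0.58 (0.134) and with quantile normalization 0.51 (0.262). Hnf4, a nuclear receptor that activates fat oxidation genes in flies, had a log2 difference of 0.31 (adjusted p = 0.439), Akh, the adipokinetic hormone that mobilises fat, had 0.32 (adjusted p = 0.495), and Sirt4, a mitochondrial sirtuin, had 0.29 (adjusted p = 0.49).

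Markers of the tissues that burn or store fat were read beside these genes. Of 7 muscle genes none passed, with a median log2 difference of 0.07, and their summed level was 2053 to 2628% of actin in METH-fed flies and 2244 to 2470% in control flies. Of 5 oenocyte genes none passed, with a median of 0.34 and sums of 1922 to 2375% in METH-fed flies and 1522 to 1906% in control flies. Of 6 fat body genes 1 was lower, with a median of -0.17. Their sums were 1101 to 1475% in METH-fed flies and 1067 to 1376% in control flies. Obp44a made the largest part of these sums, at 727 to 1031% of actin in METH-fed flies and 603 to 829% in control flies. The larval genes Fbp1 and Fbp2 were near the bottom of the arrays. The gene that fell was Lsd-1, a perilipin that coats lipid droplets, with 847, 706 and 735 units on the METH arrays and 2279, 2140 and 2340 units on the control arrays (log2 difference -1.19, limma adjusted p = 0.00242). Lsd-1, named after its values were seen, was lower on every METH array and was called lower under all 5 other scalings and with any 1 array left out, but not without the trend (adjusted p = 0.143) or with the methods' t-test after Benjamini-Hochberg adjustment (0.197).

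Markers of the gut and of the male reproductive organs included genes that passed. Of 8 midgut genes 3 were lower and none higher with limma, with a median log2 difference of -0.74 and sums of 1998 to 2699% of actin in METH-fed flies and 2277 to 3242% in control flies. Of 8 accessory gland genes 2 were lower and none higher, with a median of -0.24 and sums of 2293 to 3193% in METH-fed flies and 2359 to 3328% in control flies. Of 8 testis genes none passed, with a median of 0.41 and sums of 2569 to 3133% in METH-fed flies and 1731 to 2518% in control flies. The 4 neuron genes had a median of 0.28, none passed, and their sums were 23.2 to 28.2% in METH-fed flies and 20.1 to 25.2% in control flies. The summed testis and oenocyte signals were thus higher on every METH array on the actin scale. Of single genes, 4 of the 8 testis and 2 of the 5 oenocyte genes were wholly above, against 15.7% of all probe sets. Cyp4g1 made the largest part of the oenocyte sum, at 1180 to 1406% of actin in METH-fed flies and 852 to 1145% in control flies. As deposited the testis sums overlapped. The oenocyte sums were then 16623 to 17321 units in METH-fed flies and 17579 to 18532 units in control flies. Midgut sums were 17354 to 19441 units with METH and 27013 to 29903 in control flies. For accessory gland they were 19067 to 22348 and 28438 to 30698.5, for muscle 17829 to 21791 and 22075 to 27391, and for fat body 9563 to 10473 and 11915 to 12990. Single genes wholly below were 7 of the 8 midgut and 6 of the 8 accessory gland genes, against 13.6% of all probe sets. The part of these organs in the values of the fatty acid oxidation genes was not tested.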

How the data were processed

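Whole w1118 males were compared in a single contrast, METH minus control, with 3 arrays for each diet, grouped by the diet in their labels. The submitters' processing notes name GCOS 1.4, and the authors deposited linear signal intensities, 1 for each probe set and array. Whether the arrays had been brought to a common target is not given in the sources used here. The log2 of each signal was taken and that of AFFX-Dros-ACTIN_M_r on the same array subtracted, following the study's methods. After 183 AFFX probe sets were left out, 18769 were fitted with limma 3.58.1 in R 4.3.3 (lmFit, eBayes with a trend, two-sided, no filter on dim probe sets) with Benjamini-Hochberg adjustment over all of them. limma was used in place of SAM, the test of the methods. The method was tested on simulated data.

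A gene was read from its probe set of highest mean. Names came from the platform annotation, updated through RefSeq, which also gave the order of neighbouring genes. Of the 10 genes, 1 is not reported here. The members and lists were chosen with earlier results of these data known. Named genes were all members, in each other list those past the threshold or otherwise up to 4 of smallest p, and CG4592; others were named after their values were seen. Alternatives were other scalings, filters, spreads and tests, the replicate number as a block, and leaving out each array. The number of arrays limits the precision. Figures come from matplotlib 3.10.9 (Python 3.11.15).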

Additional observations from a re-analysis of the deposited data

How the results depend on the processing

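Acox57D-p and yip2 were the genes called higher with the actin control. As deposited, with median centring, with centring on the 75th percentile, with low values floored, with shared probe sets left out, or with the methods' t-test (p below 0.008, over 1.5-fold), 1 gene was called, Acox57D-p; without the trend 0 genes were called, with the methods' t-test after Benjamini-Hochberg adjustment 0 were, and at the study's other cutoff, p of at most 0.005 and at least 1.5-fold, which was added after seeing the data, 0 were. With 1 array left out the count was 1 to 2. Over all probe sets, 158 higher and 78 lower calls became 17 and 7 without the trend, and 2 and 0 with the methods' t-test after adjustment (234 and 62 at p below 0.008, 173 and 48 at p of at most 0.005). The lower calls numbered 381 as deposited, 169 with median centring, 211 with centring on the 75th percentile and 264 with quantile normalization. Leaving out 1 array gave 103 to 143 higher calls, the fewest without control array 3. For these changes of count the cause was not tested.

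The sign of whd turned to -0.23 as deposited, -0.047 with median centring, -0.083 with centring on the 75th percentile and -0.095 with quantile normalization, and it was -0.043 to 0.28 with 1 array left out, the lowest without control array 1. Its dim second probe set, at -0.11, turned to 0.036 with the 5 and 3 prime actin controls, 0.078 with a floor and 0.018 as the mean of both probe sets, and was -1.01 to 0.77 with 1 array left out (0.52, 0.16 and 0.77 without control array 2, control array 3 and METH array 3). As deposited, Acat2 was at -0.0085, Mfe2 at -0.16, Pex3 at -0.057, Pex2 at -0.071, Pex19 at -0.017, Hnf4 at -0.064, Sirt4 at -0.085 and Akh at -0.056. Mfe2 was also at -0.010 with centring on the 75th percentile and -0.039 with quantile normalization. Hmgs was at 0.077 with the 5 and 3 prime actin controls and at -0.26 to 0.078 with 1 array left out (0.0037 without control array 3, 0.078 without METH array 1). None of these values passed.

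The replicate number of the labels was also fitted as a block. Arrays with the same number had deviations that correlated at 0.0221, 0.0414 and 0.0639, none over 0.1. METH array 1 correlated more with control array 2 (0.0392), and every other array correlated best with its own number. The labels do not say whether arrays of the same number were paired. With this replicate block 1033 probe sets were called higher and 260 lower, and 3 of the fatty acid oxidation genes were higher, Mtpbeta with them (adjusted p = 0.0391). The difference of the Acox57D-p and Acox57D-d log2 ratio, paired by number, was 1.45 (exact permutation p = 0.25, the smallest p that 3 pairs can give).

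Among the estimates of the 7 probe sets of fatty acid oxidation genes under the alternatives, 104 kept their direction and side of the threshold, 17 lost the call, 1 gained it and 11 changed sign. Signals as dim as the second whd probe set limit what can be seen, as the wide SE shows.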
